A study of Homo sapiens with 5 samples.

Results

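DICER1 knockdown was compared with mock transfection in HEK293 cells, a human embryonic kidney line, using 3 of the 5 poly(A) RNA libraries of the series: 1 mock library and 2 libraries made with different siRNAs against DICER1. The line is HEK293 T-Rex FLAG:DICER1 FLP-IN, by its name one with a FLAG-tagged DICER1 at an engineered integration site, so every group carries the tagged copy and DICER1 reads can come from it or from the native gene. All libraries were taken 18 h after transfection. The other 2 libraries received siRNAs against DROSHA, and they entered the fit to estimate the spread. Whether the libraries are separate cultures is not in the labels, and the p-values then cover only how far these libraries spread, which may be technical. Of 18257 genes in the table, the 12234 with at least 1 CPM (read counts relative to the library total) in at least 2 libraries were tested. The filter used library totals alone, and the CPM values given below are also scaled by TMM factor.

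DICER1 is the cytoplasmic ribonuclease that cuts microRNA precursors, which DROSHA and DGCR8 release in the nucleus and XPO5 exports, into mature microRNAs of the RNA-induced silencing complex. A mature microRNA pairs through its seed, bases 2 to 8, with sites in 3' UTRs, and the pairing lowers the mRNA, so loss of DICER1 is known to relieve such targets once the existing microRNAs decay. A transfected siRNA can itself act through the same machinery on mRNAs that match its seed.

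The results turn on 3 kinds of sequence, printed 5′ to 3′. The first are mature microRNAs of families that are abundant in dividing cells, from RefSeq (GRCh38.p14), with the seed in capitals.
let-7a-5p: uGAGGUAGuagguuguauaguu
miR-17-5p: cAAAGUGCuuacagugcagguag
miR-19b-3p: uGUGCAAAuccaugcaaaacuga
miR-92a-3p: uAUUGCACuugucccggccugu
miR-16-5p: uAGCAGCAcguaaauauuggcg
miR-21-5p: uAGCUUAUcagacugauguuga
The second is a stretch of the DICER1 coding sequence (GENCODE 29 transcript, bases 1623 to 1652 counted from the start codon), in which capitals mark the letters AATATC first, then the 7-mer CTATGTT and last the 7-mer AATCTAA.
DICER1: agAATATCgatcCTATGTTcAATCTAAagg
Genes with either 7-mer in the 3' UTR had a lower median in the DICER1 libraries, and AATATC is the reverse complement of GATATT, the first letters of another such 7-mer. That 7-mer, GATATTA, was not found in the DICER1 transcript. AATATC was looked for once the 7-mers were known, and how often it occurs elsewhere was not counted. The last are the joined repressor element sequences at the transcription starts of SCG3 (chr15:51681511-51681536, plus strand) and UNC13A (chr19:17688340-17688365, minus strand) in the RefSeq promoters (GRCh38.p14), with both arms of the element in capitals.
SCG3: TTCAGCACCcacagggcGGACAGCGC
UNC13A: GCGCTGTCCgcgcccccGGTGCTGAA

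Total counts ran from 7620206 to 8736455 per library. Markers of the embryonic kidney line were present in every library, with VIM at 3340 to 3816 counts and LIN28B at 863 to 1331. Others of that list were low, with PAX2 at 16 to 37 counts and NEFM at 8 to 17. The leukocyte marker PTPRC and the fibroblast marker DCN had 0 counts in all 5. Of the other fibroblast markers COL1A1 had 42 to 58 counts and COL3A1 2 to 7. HBB, a haemoglobin gene, had 169 to 215 counts and MBP, a myelin gene, 113 to 148, and both were spread over the groups. The median log2 fold change of all tested genes was 0.0005, and 93.7% of genes lay within 0.5 of 0.

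DICER1 was the only gene that fell past the test. It measured 243.1 CPM in the mock, and 74.1 and 67.7 CPM with siRNA 1 and siRNA 2 against it, against 282.1 and 332.6 CPM in the DROSHA libraries. Both DICER1 libraries were far below the other 3 and close to each other. The log2 fold change against mock was -1.78 ± 0.12 (SE), 3.43-fold lower, and the quasi-likelihood test of edgeR gave an adjusted p of 0.0260. It was the 1 gene called of 12234 (0.00817%), and DESeq2 called 5 genes (0.0409%) and edgeR's likelihood ratio test 29 (0.237%). Without an adjustment, 668 genes (5.46%) had a quasi-likelihood p under 0.05, 304 of them higher (2.48%) and 364 lower (2.98%). The DICER1 call was lost without either DICER1 library, at -1.85 without siRNA 1 (adjusted p = 0.120) and -1.71 without siRNA 2 (adjusted p = 0.658).

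The other genes of the microRNA pathway lay close to the mock. DROSHA levels were 191.5 CPM in the mock against 194.5 and 192.9 CPM after DICER1 siRNA. XPO5 had a log2 fold change of 0.06 ± 0.09, DGCR8 of 0.10 ± 0.10 and TARBP2, a double-stranded RNA binding partner of DICER1, of -0.04 ± 0.10. Of 28 tested members of the biogenesis and silencing complex list, 12 were higher and 10 lower than the mock in both DICER1 libraries. Of all tested genes, 36.7% were higher and 36.4% lower in both, 73.1% on one side, and list counts below are to be read beside these shares. The list's median log2 fold change was 0.01, against 0.0005 for all genes. After DICER1, the members with the smallest p were XRN2, a nuclear exonuclease, at -0.20 ± 0.07, the export GTPase RAN at -0.11 ± 0.07 and TRIM71, a let-7 target and silencing cofactor, at 0.40 ± 0.21. TNRC6C, a scaffold of the silencing complex, stood at 0.39 ± 0.23. No member other than DICER1 passed the test.

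Because the mock is a single library, genes were also described by a rule that asks each siRNA separately to be at least 1.5-fold from the mock, at a mean of at least 5 CPM over the 3 libraries. Of 10630 such genes, 46 were higher in both DICER1 libraries (0.433%) and 30 lower (0.282%). The same rule gave 6 higher (0.0567%) and 13 lower (0.123%) of 10586 genes for the DROSHA libraries, which share the mock. With siRNA 2 alone 1.21% of genes were at least that much higher and 1.67% lower than the mock, and siRNA 2 was that much higher than siRNA 1 in 0.489% and lower in 0.611%. The higher and lower genes differed in level. The 46 higher genes had a median of 6.07 CPM in the mock, 39 of them were under 20 CPM, and none reached 100 CPM. The 30 lower genes had a median of 73.4 CPM in the mock, and 11 stood at 100 CPM or more. The distance from the mock was greater with siRNA 2 in 33 of the 46 higher genes and 21 of the 30 lower ones. With a mean of at least 20 CPM, 10 genes were higher and 21 lower. Of the 46 higher genes 20 were also higher than the mock in both DROSHA libraries and 7 lower. Of the 30 lower genes 17 were also lower in both DROSHA libraries and 6 higher. Over all tested genes 31.5% were higher and 32.5% lower in both DROSHA libraries. The 46 and 30 genes were picked by their ratio to the same single mock, so part of the shared direction is built in.

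**Figure D1:**
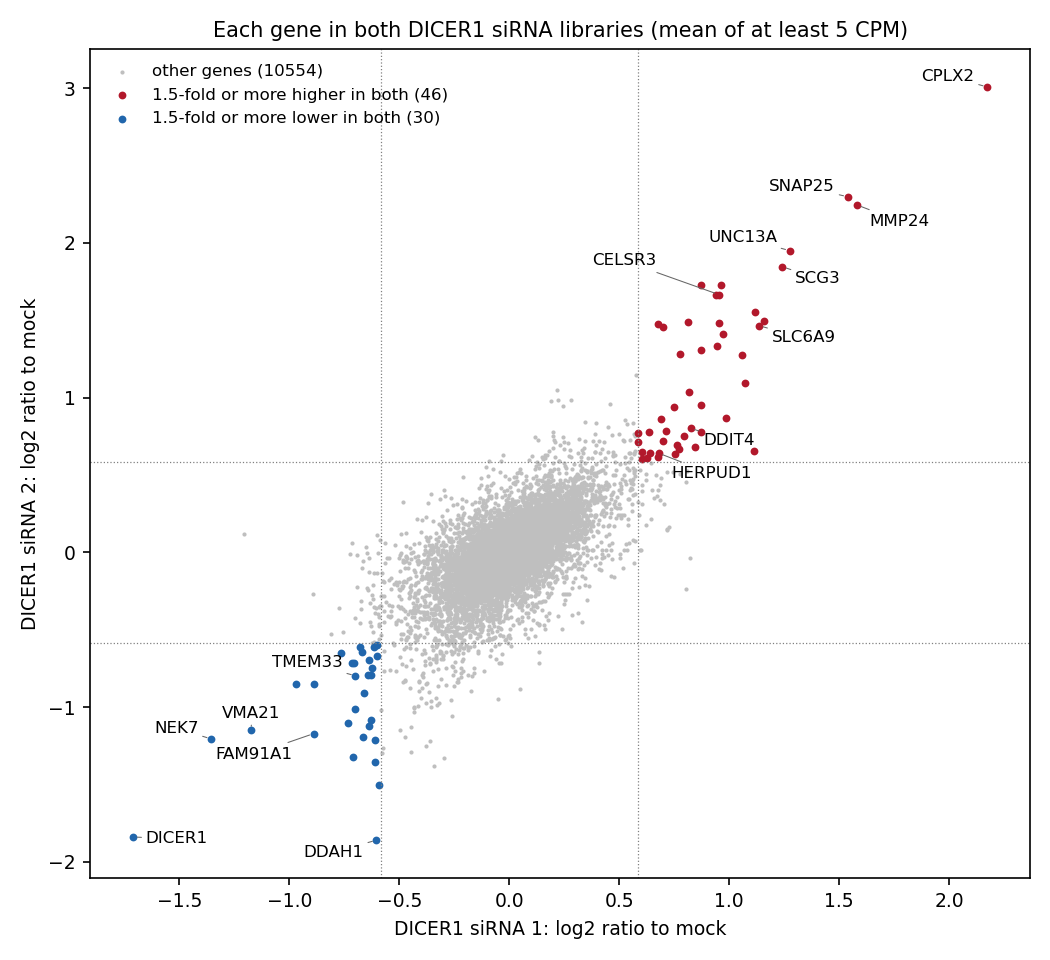
Log2 ratio to the mock of each gene with a mean of at least 5 CPM, with DICER1 siRNA 1 on the x axis and DICER1 siRNA 2 on the y axis (log2 CPM, prior count 2); dotted lines mark 1.5-fold. Red points are the 46 genes higher and blue points the 30 genes lower by at least 1.5-fold in both libraries, with CPLX2 at one end and DICER1 at the other.

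Genes of regulated secretion led the higher side. CPLX2, which clamps and promotes vesicle fusion, measured 2.97 CPM in the mock, 14.3 and 25.6 CPM in the DICER1 libraries and 3.10 and 2.42 CPM in the DROSHA libraries. SNAP25, a subunit of the fusion complex, measured 2.50 CPM in the mock, 7.72 and 13.2 CPM with DICER1 siRNA and 2.53 and 4.84 CPM with DROSHA siRNA. UNC13A, which primes vesicles, measured 3.81 CPM in the mock, 9.56 and 15.4 CPM with DICER1 siRNA and 2.53 and 2.04 CPM with DROSHA siRNA. In all 3 genes both DICER1 libraries were above the other 3 libraries, and siRNA 2 was above siRNA 1. How many of all tested genes show such a separation was not counted, here or below. The genes were named for small p or large ratios in these libraries, so a separation is partly set by that choice. Their log2 fold changes against mock were 2.75 ± 0.46, 2.07 ± 0.51 and 1.72 ± 0.37, none past the quasi-likelihood test (each adjusted p = 0.865). All 3 passed edgeR's likelihood ratio test, with adjusted p of 1.06e-05, 0.0326 and 0.0160.

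Cargo of dense-core granules stood higher as well. SCG3, which brings granins to the granule membrane, measured 5.11 CPM in the mock, 12.4 and 19.0 CPM with DICER1 siRNA and 3.79 and 2.55 CPM with DROSHA siRNA. CHGA measured 4.99 CPM in the mock and 11.1 and 15.2 CPM with DICER1 siRNA, and CHGB 7.49 CPM against 14.7 and 19.3 CPM. These granins are the bulk cargo of the granules, and in both the DROSHA libraries did not reach the DICER1 libraries (3.44 to 5.05 CPM and 4.33 to 6.31 CPM). Components of the presynapse stood at higher levels from the start. The vesicle membrane protein SYP measured 33.1 CPM in the mock and 56.8 and 80.6 CPM with DICER1 siRNA, and the active zone scaffold BSN 16.8 CPM against 27.0 and 47.2 CPM. Over the list of 36 tested granule and synaptic vesicle genes, 22 were higher and 7 lower in both DICER1 libraries, and the median log2 fold change was 0.23. By library the median log2 ratio to mock was 0.21 with DICER1 siRNA 1 and 0.25 with siRNA 2, and -0.08 and -0.06 with DROSHA siRNA 1 and 2. Levels in bulk RNA do not tell more RNA per cell from more cells that express a gene.

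Compared directly with the DROSHA libraries, a contrast that leaves the mock out, CPLX2 was higher by 2.85 ± 0.36 on the log2 scale, UNC13A by 2.44 ± 0.32, SCG3 by 2.30 ± 0.30, CHGB by 1.66 ± 0.23, CHGA by 1.62 ± 0.25 and SNAP25 by 1.53 ± 0.37. None passed the quasi-likelihood test (adjusted p from 0.158 to 0.445, the latter for SNAP25), in which 2 genes of 12234 (0.0163%) were called, DICER1 and DROSHA. Without an adjustment 1020 genes (8.34%) had a p under 0.05 in this contrast.

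**Figure D2:**
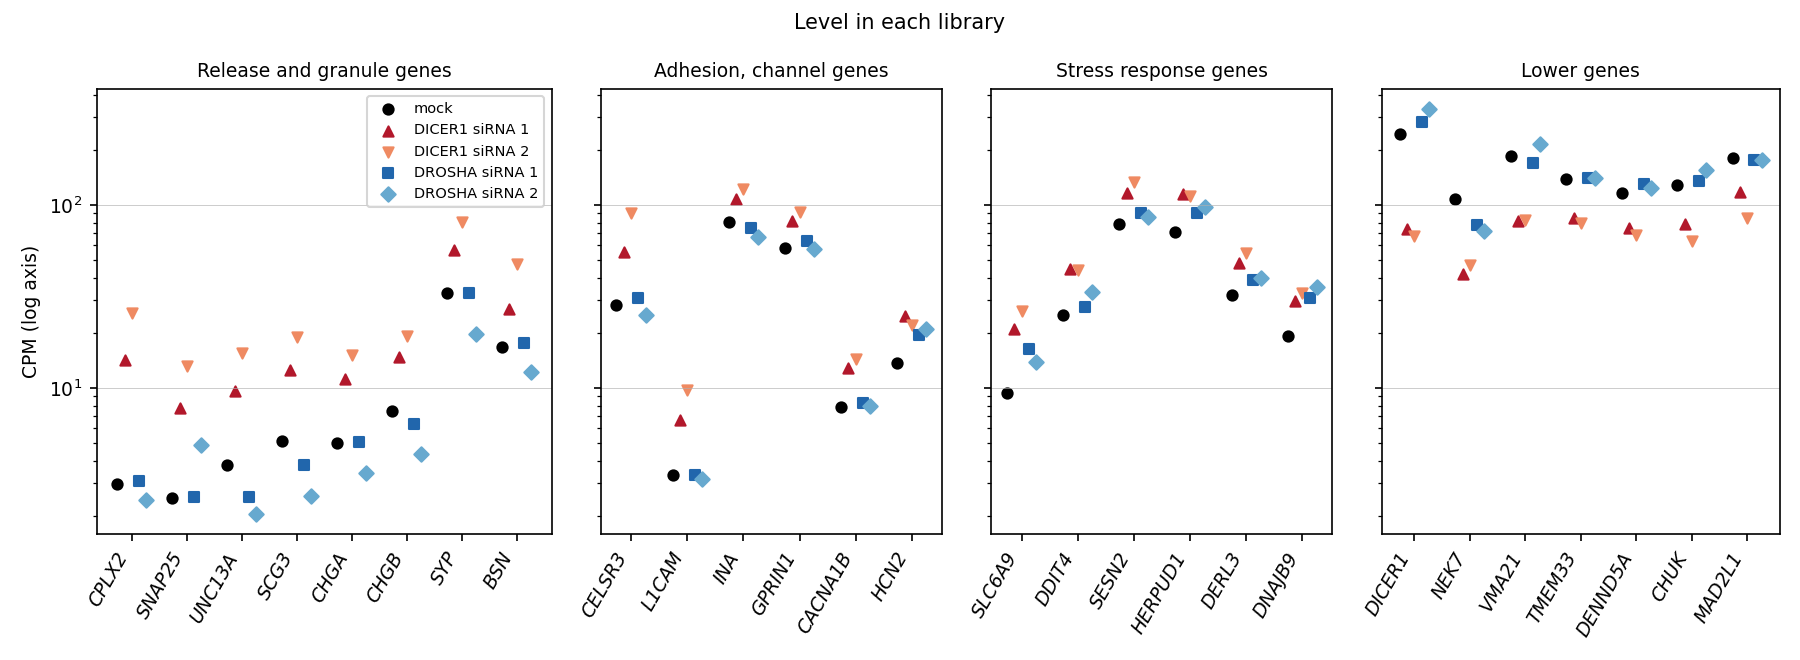
Level of named genes in each of the 5 libraries, in CPM on a log axis; each point is 1 library. The DICER1 libraries (triangles) lie above the other 3 for the release and granule genes and below them for the genes in the right panel; DNAJB9 is an exception, with a DROSHA library above the DICER1 libraries.

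Adhesion, cytoskeleton and channel genes of neurons were also among the 46. CELSR3, a cadherin of planar polarity, measured 28.4 CPM in the mock, 55.2 and 90.7 CPM with DICER1 siRNA and no more than 30.8 CPM with DROSHA siRNA, a log2 fold change of 1.36 ± 0.31 (DESeq2 adjusted p = 0.0209). L1CAM, an axonal adhesion molecule, measured 3.33 CPM in the mock and 6.68 and 9.75 CPM with DICER1 siRNA, while both DROSHA libraries stayed within 3.19 to 3.33 CPM. CNTNAP1, an axonal junction protein, had a log2 fold change of 0.93 ± 0.19. Its DROSHA libraries, at 13.3 and 11.6 CPM, were above the mock as well, at 8.32 CPM. Channel subunits in the set were CACNA1B at 0.80 ± 0.19, CACNB3 at 0.72 ± 0.21 and HCN2 at 0.77 ± 0.16. HCN2 also stood above the mock in the DROSHA libraries, at 19.5 and 20.9 CPM against 13.7 CPM in the mock and 24.7 and 22.0 CPM with DICER1 siRNA. So did CACNB3, at 10.6 and 13.6 CPM against 9.75 CPM, and by less CACNA1B, at 8.27 and 7.90 CPM against 7.85 CPM. Other neuronal genes in the set were the postsynaptic scaffold DLGAP3 at 1.42 ± 0.50, the kinase inhibitor CAMK2N2 at 1.23 ± 0.30, the axon maintenance enzyme NMNAT2 at 1.45 ± 0.39 and SRRM3, a splicing factor of neuronal microexons, at 1.25 ± 0.32. The metalloproteinase MMP24, at 2.04 ± 0.70, and PAX5, a transcription factor known from B cells and the midbrain, at 1.41 ± 0.38, were in the set too. The cytoskeleton list also had a member among the 30 lower genes, the microtubule protein MAP1A, at -0.68 ± 0.19. MAP1A had 23.0 CPM in the mock, 14.7 and 14.1 CPM with DICER1 siRNA and 10.6 and 13.9 CPM with DROSHA siRNA, so all 4 siRNA libraries were below the mock.

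Outside the set, GPRIN1, a neurite outgrowth protein, stood at 0.56 ± 0.13, and the neuronal intermediate filament INA, abundant in this line, at 0.51 ± 0.13. INA had 80.5 CPM in the mock, 107.7 and 121.3 CPM with DICER1 siRNA and 75.1 and 66.4 CPM with DROSHA siRNA, so the DICER1 libraries did not overlap the other 3. Of 39 tested cytoskeleton and adhesion genes, 19 were higher and 7 lower in both DICER1 libraries, with a median log2 fold change of 0.10. The median log2 ratios were 0.12 and 0.12 in the DICER1 libraries and -0.10 and -0.17 in the DROSHA libraries.

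Many of these genes are known targets of REST, a repressor that binds the repressor element RE1 and keeps neuronal genes low outside neurons. REST itself measured 50.8 CPM in the mock, 46.7 and 34.1 CPM with DICER1 siRNA and 52.2 and 70.9 CPM with DROSHA siRNA, a log2 fold change of -0.33 ± 0.24 that did not pass the test (edgeR adjusted p = 0.896). Both DICER1 libraries were the lowest of the 5, and the distance from the mock with siRNA 1 was small. The list of REST, its corepressors and the PTB splicing repressors had a median log2 fold change of -0.03 over 19 members, 8 higher and 9 lower in both libraries. That median was 0.01 without DICER1 siRNA 2. PTBP1, which represses neuronal exons, measured 757.8 CPM in the mock and 672.9 and 532.3 CPM with DICER1 siRNA (-0.33 ± 0.17), and its neural counterpart PTBP2 47.3 CPM against 59.7 and 74.8 CPM (0.51 ± 0.23). DROSHA siRNA 2 stood below the mock for PTBP1 and above it for PTBP2 as well, at 589.8 and 69.9 CPM.

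RE1 has a left arm, searched as TTCAGCACC, and a right arm, searched as GGACAGCGC, on both strands of the 300 bases around the start (250 before, 50 after) of the 10112 tested genes with a RefSeq promoter. The right arm was found in 0.979% of all these promoters and in 4 of 27 granule and vesicle genes, SCG3, UNC13A, BSN and VGF, a granule neuropeptide gene. All 4 were higher in both DICER1 libraries, VGF by 0.65 ± 0.24. The left arm was in 0.307% of all promoters and in 3 of the 27, SCG3, UNC13A and SYN1, a vesicle phosphoprotein gene that stood at -0.07 ± 0.50, with 0.574 to 2.09 CPM over the 5 libraries. CELSR3 holds both arms apart from each other. Both arms with exact letters, in one orientation and with at most 12 bases between them, occurred in 2 of 10112 promoters (0.0198%). These were SCG3 and UNC13A, printed above, each with 8 bases between the arms. A search that allows a mismatch was not run. SYN1 reads TTCAGCACCgcggacagtgc and VGF GCGCTGTCCagcgtgctgaa, each with a near match to the other arm beside the exact arm. A match describes the letters and is not a binding site. Over all 99 tested genes with the right arm the median log2 fold change was -0.001, and over the 31 with the left arm it was 0.03.

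Genes of the integrated stress response stood higher in both DICER1 libraries as well. SLC6A9, the glycine transporter induced through ATF4, measured 9.40 CPM in the mock, 20.9 and 26.3 CPM with DICER1 siRNA and 16.3 and 13.9 CPM with DROSHA siRNA. DDIT4, an inhibitor of mTORC1, measured 25.1 CPM in the mock, 44.6 and 43.9 CPM with DICER1 siRNA and 27.7 and 33.3 CPM with DROSHA siRNA. SESN2, which senses leucine for the same kinase, stood at 78.5 CPM, at 116.4 and 133.7 CPM, and at 90.5 and 85.3 CPM in these groups. In all 3 genes the DICER1 libraries were the highest and did not overlap the DROSHA libraries, which were themselves above the mock. The 3 genes were named for small p, and the share of all genes with this order was not counted. Log2 fold changes were 1.33 ± 0.22, 0.82 ± 0.15 and 0.67 ± 0.12, with edgeR likelihood ratio adjusted p of 0.000140, 0.00785 and 0.0186. The transcription factor ATF3 stood at 0.45 ± 0.11 and the glutathione-degrading enzyme CHAC1 at 0.67 ± 0.38. Of 38 tested genes of ATF4 and amino acid supply, 32 were higher and 2 lower in both DICER1 libraries. The median log2 fold change was 0.21, with 10 members higher and 0 lower at an unadjusted quasi-likelihood p under 0.05. Of all tested genes 2.48% were higher and 2.98% lower at that p. The list was chosen with earlier results of these data known, so the count is a description. By library the medians were 0.18 and 0.24 with DICER1 siRNA and 0.09 and -0.01 with DROSHA siRNA.

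The endoplasmic reticulum arm was less uniform. HERPUD1, which feeds misfolded proteins to degradation, measured 71.2 CPM in the mock, 114.3 and 111.2 CPM with DICER1 siRNA and 90.4 and 97.3 CPM with DROSHA siRNA, a log2 fold change of 0.66 ± 0.10. DERL3, a subunit of the same export machinery, stood at 0.67 ± 0.13, DNAJB9, a co-chaperone, at 0.71 ± 0.16 and XBP1, a transcription factor of the unfolded protein response, at 0.31 ± 0.10. The main chaperone HSPA5 measured 472.2 CPM in the mock, 599.0 and 499.7 CPM with DICER1 siRNA and 553.6 and 616.7 CPM with DROSHA siRNA, so the groups overlapped. Of 35 tested members 19 were higher and 9 lower in both DICER1 libraries, with a median of 0.09, and 25 were higher and 6 lower in both DROSHA libraries. The core of the amino acid response element, which ATF4 is known to bind, was searched as TGATGNAAT (N is any base). That string was found in 0 of 30 promoters of the ATF4 list and in 0.415% of all promoters. Cores with another last base were not searched, so the count does not show that these genes lack the element. The stress element ERSE lies in 7 of 32 promoters of the list and in 0.138% of all promoters. The 7 genes had a median log2 fold change of 0.02. DUSP1, a MAP kinase phosphatase, at 0.54 ± 0.12, JUND at 0.51 ± 0.17 and KLF4 at 0.55 ± 0.20 were among the 4 smallest p of the immediate early genes, transcription factors and feedback regulators that respond to stimuli within minutes. Of 37 members 24 were higher and 3 lower in both DICER1 libraries, with a median of 0.14. In both DROSHA libraries 16 were higher and 5 lower, with median log2 ratios of 0.11 and 0.08, and KLF4 stood at 0.57 ± 0.20 in DROSHA against mock.

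Several housekeeping groups lay slightly below the mock. Of 33 cytosolic heat shock chaperones 24 were lower and 3 higher in both DICER1 libraries, with a median log2 fold change of -0.10. HSPA4L, a nucleotide exchange factor, measured 98.2 CPM in the mock and 75.0 and 79.3 CPM with DICER1 siRNA. Subunits of the CCT chaperonin, which folds actin and tubulin, were CCT3 at -0.19 ± 0.07, CCT4 at -0.22 ± 0.07 and CCT5 at -0.14 ± 0.05. Of 34 proteasome subunits 26 were lower and 2 higher, with a median of -0.08, and PSMA1 of the catalytic core stood at -0.30 ± 0.09, PSMC6 at -0.31 ± 0.10, PSMD6 at -0.23 ± 0.10 and PSMD10 at -0.35 ± 0.18. Of 42 SR proteins and splicing regulators 29 were lower and 9 higher, with a median of -0.09. SRSF7 stood at -0.24 ± 0.07, TRA2B at -0.21 ± 0.07, HNRNPM at -0.15 ± 0.06 and CELF2 at -0.70 ± 0.23. CELF2 varied between the siRNAs, at 116.2 CPM in the mock, 85.9 CPM with siRNA 1 and 57.6 CPM with siRNA 2. Of 36 cholesterol and fatty acid synthesis genes 22 were lower and 6 higher, with a median of -0.08, among them STARD4, a sterol carrier, at -0.39 ± 0.12, INSIG1, a sterol sensor, at -0.42 ± 0.19, CYP51A1 at -0.51 ± 0.23 and PMVK at -0.29 ± 0.12. None of these members passed the quasi-likelihood test.

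The DROSHA libraries, set against the same mock, had median log2 ratios of -0.09 and -0.04 for the heat shock list, -0.03 and -0.08 for the proteasome, -0.09 and -0.09 for splicing and -0.07 and -0.25 for cholesterol synthesis. A part played by the mock library in these 4 shifts cannot be told apart from the knockdown. The core of the heat shock element lies, on either strand, in 4 of 30 heat shock promoters and 0.297% of all. Those 4 genes include HSPA8, the main constitutive chaperone, at -0.13 ± 0.06, and CHORDC1, a partner of HSP90, at -0.17 ± 0.10. All 4 were lower in both DICER1 libraries.

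**Figure D3:**
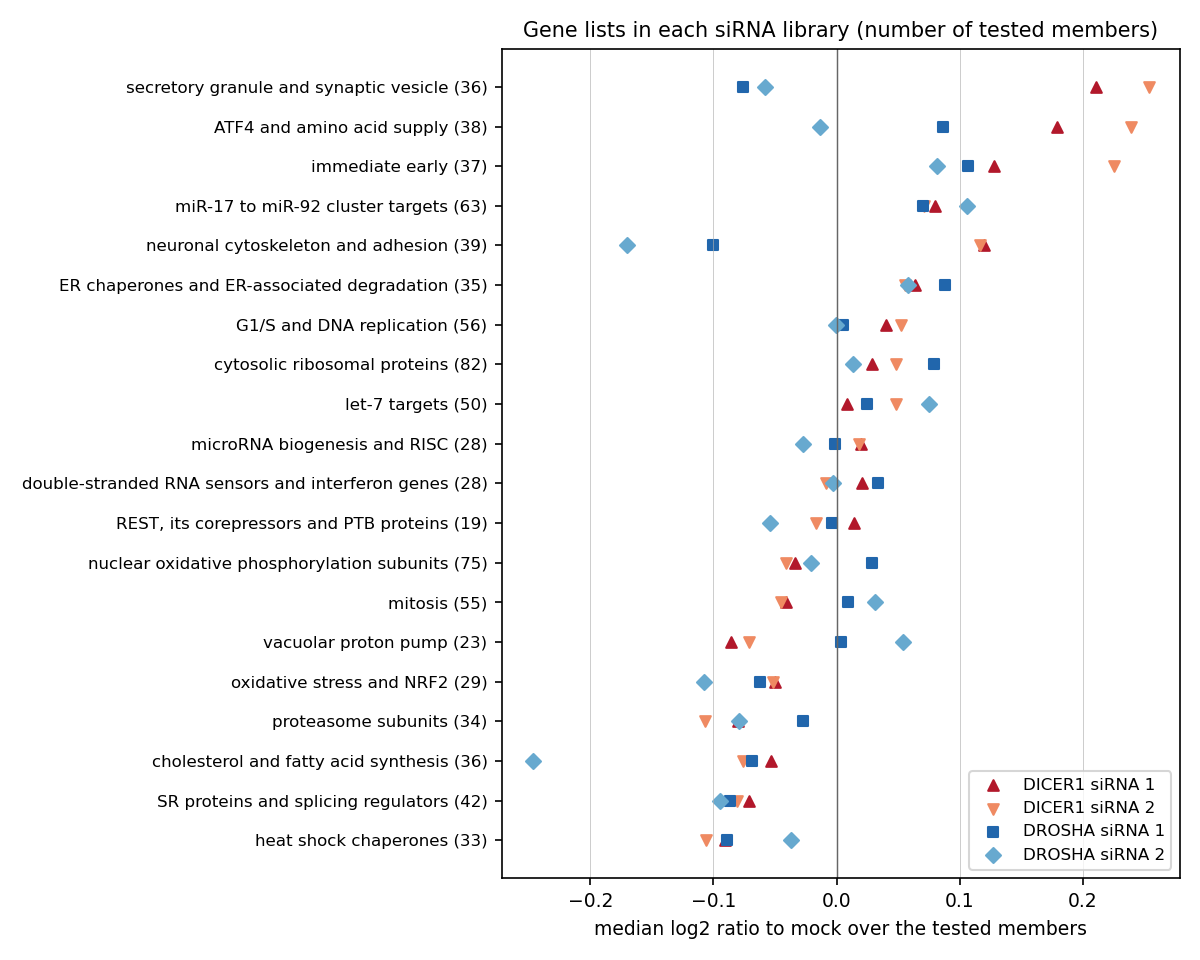
Median log2 ratio to the mock over the tested members of 20 gene lists, with 1 symbol for each siRNA library; the number of tested members stands in brackets. For the granule and synaptic vesicle list the DICER1 medians are 0.21 and 0.25 and the DROSHA medians -0.08 and -0.06; for the splicing list all 4 libraries lie below 0.

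The next lists had medians from -0.07 to 0.05, and the counts of several leaned to one side as in the groups above. Nuclear oxidative phosphorylation subunits had a median of -0.03 over 75 members, with 37 lower and 14 higher in both DICER1 libraries. Cytosolic ribosomal proteins had a median of 0.04 over 82 members, with 50 higher (61.0%, against 36.7% of all genes) and 19 lower. The smallest p was that of RPL13A at 0.17 ± 0.06. Genes of G1/S and DNA replication had a median of 0.05 over 56 members, with 31 higher and 16 lower. The 55 mitotic genes had a median of -0.03, with 26 lower and 11 higher. The vacuolar proton pump, led by its assembly factor VMA21, had a median of -0.05 over 23 members, with 12 lower and 5 higher. Genes of the NRF2 oxidative stress response had a median of -0.07 over 29 members, with 15 lower and 6 higher. Their median log2 ratios in the DROSHA libraries, set against the same mock, were -0.06 and -0.11. Sensors of double-stranded RNA and interferon genes, which foreign RNA is known to engage, had a median of -0.01 over 28 members, with 8 higher and 8 lower. Among them ISG15, an interferon-induced ubiquitin-like protein, measured 7.14 CPM in the mock and 11.5 and 9.26 CPM with DICER1 siRNA. IFIT5 stood at -0.37 ± 0.14 and DHX9 at -0.10 ± 0.06. The remaining 12 of the 32 lists had medians between -0.03 and 0.07.

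The lower side was led by genes of unrelated function. NEK7, a mitotic kinase that also assembles the NLRP3 inflammasome, measured 108.0 CPM in the mock, 42.0 and 46.7 CPM with DICER1 siRNA and 78.0 and 72.2 CPM with DROSHA siRNA. VMA21 measured 183.6 CPM in the mock, 81.3 and 82.5 CPM with DICER1 siRNA and 169.2 and 213.5 CPM with DROSHA siRNA. TMEM33, a membrane protein of the endoplasmic reticulum, measured 138.2 CPM in the mock, 84.9 and 79.4 CPM with DICER1 siRNA and 140.7 and 140.9 CPM with DROSHA siRNA. In each of the 3 both DICER1 libraries lay below the other 3 libraries and close to each other. The 3 genes were named for small p, and the share of all genes with this order was not counted. Log2 fold changes were -1.28 ± 0.11, -1.16 ± 0.14 and -0.75 ± 0.09, with edgeR quasi-likelihood adjusted p of 0.0876, 0.369 and 0.369. NEK7 and VMA21 passed DESeq2, with adjusted p of 3.16e-06 and 1.27e-05. With only the mock and DICER1 libraries in the fit, 7 genes passed the quasi-likelihood test: DICER1, NEK7, VMA21, TMEM33, KCTD12, FAM91A1 and TNPO1, an importin named after its value was seen, all of them lower.

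Other genes with small p on this side were DENND5A, a Rab exchange factor, at -0.69 ± 0.10, CHUK, which activates NF-kappaB, at -0.85 ± 0.15, and the spindle checkpoint gene MAD2L1 at -0.84 ± 0.17. SESN3 stood at -0.66 ± 0.13, DEPDC1 at -0.71 ± 0.13 and TWSG1, a BMP-binding protein, at -0.91 ± 0.20. SESN3 measured 90.3 CPM in the mock and 56.7 and 57.6 CPM with DICER1 siRNA, the opposite side of the mock from its relative SESN2. EIF3A, a scaffold subunit of the initiation factor that recruits ribosomes, measured 705.2 CPM in the mock and 555.5 and 574.5 CPM with DICER1 siRNA. Some genes differed between the siRNAs. DDAH1 measured 158.8 CPM in the mock, 104.3 CPM with siRNA 1 and 43.6 CPM with siRNA 2, and the autophagy receptor SQSTM1 153.5, 121.2 and 58.8 CPM. FAM91A1 measured 98.7 CPM in the mock and 53.1 and 43.7 CPM with DICER1 siRNA, while DROSHA siRNA 1, at 52.5 CPM, lay among the DICER1 libraries and DROSHA siRNA 2, at 101.6 CPM, near the mock. SOX21 was lower in all 4 siRNA libraries, at 4.45 to 5.10 CPM against 8.44 CPM in the mock.

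The lower genes shared short sequences in their 3' UTRs. For each of 15577 7-mers present in at least 100 of 10460 genes at 5 CPM or more, genes with and without it were compared after 3' UTR length, GC content and expression had been regressed out of the log2 ratio. The 7-mers were ranked by this difference over its standard error. AATCTAA ranked lowest of all in both DICER1 libraries, with an adjusted difference of -0.06 with siRNA 1 and -0.16 with siRNA 2. GATATTA and CTATGTT ranked 2 and 3 with siRNA 1, at -0.06 and -0.06, but ranked 1626 and 260 with siRNA 2, at -0.01 and -0.02. With the DICER1 siRNA 1 library set against DROSHA siRNA 1, which leaves the mock out, CTATGTT ranked 1, GATATTA 2 and AATCTAA 4 from the lowest. With DICER1 siRNA 2 against DROSHA siRNA 2, AATCTAA ranked 1, CTATGTT 161 and GATATTA 4365. The 7-mers were chosen from these libraries, so their ranks are a description.

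More copies went with a larger distance from the mock in the DICER1 libraries. The 7-mers were picked for low values in these libraries, so this order is partly built in. The medians by copies are not adjusted for 3' UTR length either. For AATCTAA the 10592 genes without a copy had a median log2 ratio of 0.02 with siRNA 2, the 1172 genes with 1 copy -0.12 and the 233 genes with more copies -0.20. With siRNA 1 these medians were 0.01, -0.07 and -0.13. In the DROSHA libraries the genes with more copies had medians of -0.05 with siRNA 1 and 0.01 with siRNA 2. Of 1405 genes with the 7-mer 840 were lower in both DICER1 libraries (59.8%) and 270 higher (19.2%). GATATTA and CTATGTT, at 2 or more copies, had medians of -0.13 and -0.09 with siRNA 1 and of -0.04 and -0.06 with siRNA 2. DROSHA siRNA 1 lay below 0 for these carriers as well, at -0.08 and -0.06, and DROSHA siRNA 2 at 0.009 and -0.02. Its genes with 1 copy of GATATTA or CTATGTT had medians of -0.04 and -0.04 with DROSHA siRNA 1. Those without a copy had 0.0007 and 0.0008, so the medians of that library also fell with copies.

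**Figure D4:**
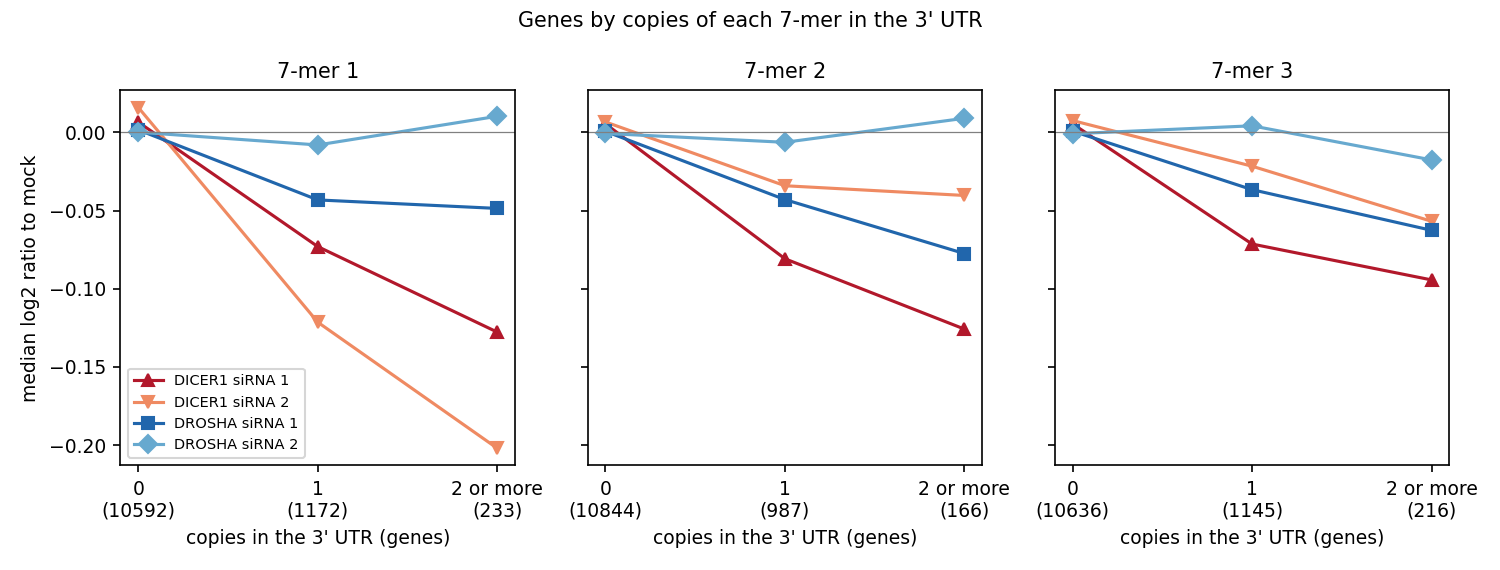
Median log2 ratio to the mock of genes grouped by how many copies of a 7-mer their 3' UTR holds, with 1 line for each siRNA library and the number of genes in brackets; panel 1 shows AATCTAA, panel 2 shows GATATTA and panel 3 shows CTATGTT. The line of DICER1 siRNA 2 reaches -0.20 for the first 7-mer at 2 or more copies, and that of DICER1 siRNA 1 lies lowest in the other panels.

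Sites of the leading lower genes are printed with the 7-mer in capitals, since they can be read against the DICER1 stretch above.
NEK7: gtatctttttaAATCTAAatgttcatatt
VMA21: taattatgtgcAATCTAAaaacactccca
TMEM33: actctaatatcAATCTAAagagaaattta
CHUK: catttgcttgcAATCTAAtctgaactgac
MAD2L1: gaggtgtcttcAATCTAAtggataaactt
DENND5A: aagcttgtcacAATCTAActggctatgtt
EIF3A: gtgcttcaaccAATCTAAattggattctt
NEK7 holds 2 copies, VMA21 3, TMEM33 5, CHUK 2 and MAD2L1 2, all in 3' UTRs of GENCODE 29 transcripts. DENND5A holds CTATGTT 4 bases after AATCTAA. Of the 30 lower genes 17 hold AATCTAA, which 11.7% of 11997 scanned genes hold, 11 hold GATATTA (9.61% of all) and 11 CTATGTT (11.3% of all), and 23 hold any of the 3 (25.3% of all). Of the 46 higher genes 4 hold any. The 7-mers and the 30 genes were picked from the same libraries, so an excess is built in and these counts are a description. The shares are not matched for length either. Genes with AATCTAA had a median 3' UTR of 3195 bases, and genes without it 1022 bases. SESN3, FAM91A1, SOX21 and SLC39A10 are among the 7 lower genes with none.

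In DICER1 itself AATCTAA and CTATGTT do not lie together in the 3' UTR but in the coding sequence, 1 base apart. Both lie within 30 bases of each other in 11 of 12159 scanned transcripts (0.0905%). DICER1 also has CTATGTT at 2 places in its 3' UTR of 4270 bases. Whether these letters belong to either siRNA was not tested, since the sequences of the siRNAs are not given in the sources used here.

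Seed matches of microRNAs gave much smaller differences than these 7-mers, which were picked for their low ranks in the same libraries. Genes were split by a 7-base match to the seed in the 3' UTR for 21 families, and the median with a match was set against the median without. With all libraries in the fit the difference lay above 0 for 10 families and below 0 for the others. For let-7 (site CTACCTC, 1226 genes) the medians were 0.004 with and -0.0005 without a match. For the miR-17 family (site GCACTTT, 2781 genes) they were 0.008 and -0.002, and for miR-19 (TTTGCAC, 1797 genes) 0.008 and -0.001. For miR-15 and miR-16 (TGCTGCT, 2829 genes) they were 0.009 and -0.002, and for miR-21 (ATAAGCT, 1106 genes) -0.03 and 0.003. By counts over genes, 38.3% of genes with a miR-17 site and 37.6% of those with a let-7 site were higher in both DICER1 libraries, against 36.7% of all genes. The families farthest from that share lay below it: 29.2% of genes with a miR-26 site were higher and 42.8% lower, 332 of 1106 with a miR-21 site were higher and 483 lower, and 290 of 905 with a miR-196 site were higher and 374 lower.

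The families changed order in a second comparison, in which 3' UTR length, GC content and expression were regressed out. There 16 of 21 families were above 0. That comparison took means over the 10460 genes at 5 CPM or more, and the one above took medians over 11997 genes. The change in number therefore cannot be credited to the regression alone. Families of other tissues give a scale: miR-122, a liver microRNA, stood at 0.008 and miR-1, a muscle microRNA, at -0.006. The miR-19 family stood at 0.02 and ranked 46 from the highest of the 15577 7-mers, the miR-17 family at 0.02 and ranked 65, miR-15 and miR-16 at 0.01 and ranked 357, and let-7 at 0.004 and ranked 5943. In the DROSHA libraries, set against the same mock, the miR-17 site ranked 1 in both, at 0.03 and 0.05, and the miR-19 site ranked 4 and 3, at 0.03 and 0.04. The largest family difference in DICER1 against mock, 0.02 on the log2 scale, compares with -0.11 for AATCTAA over the same genes. AATCTAA was picked from these libraries for its low rank, so the gap between them is partly set by that choice.

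**Figure D5:**
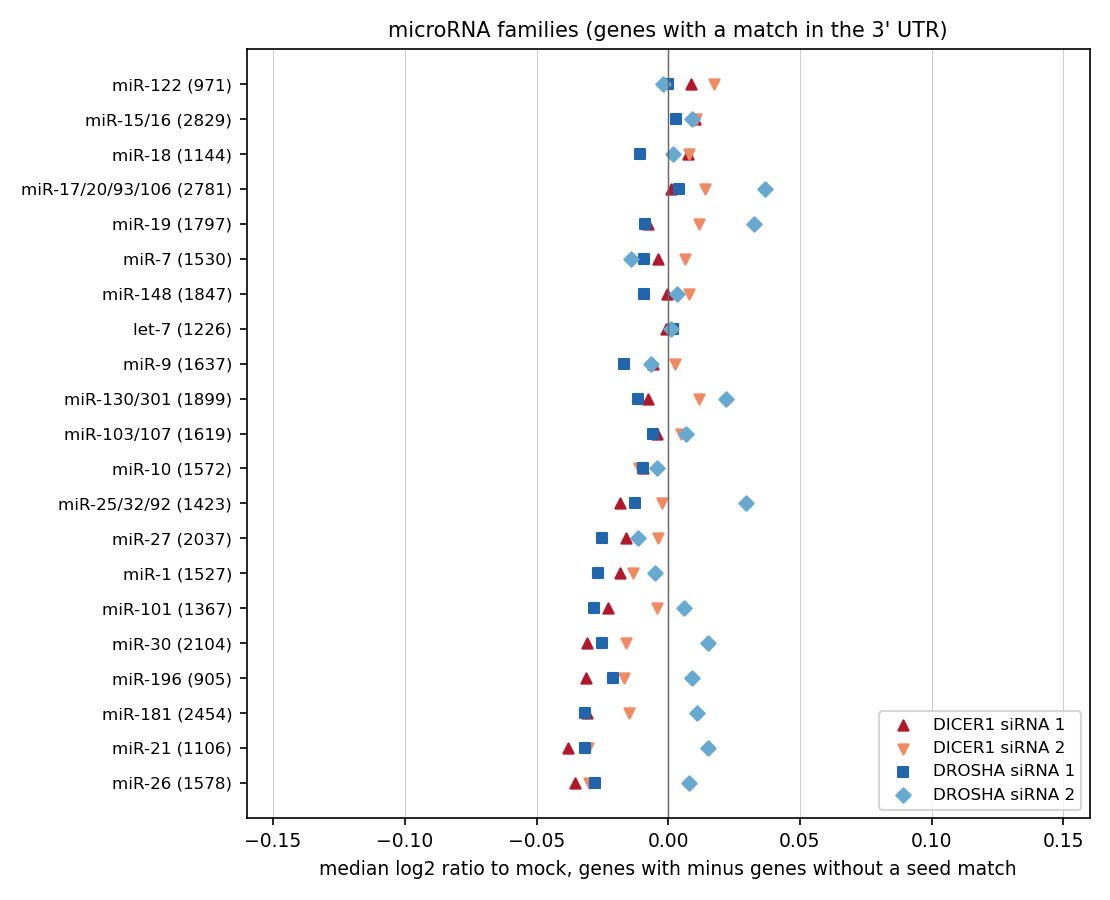
Difference in the median log2 ratio to the mock between genes with and without a seed match in the 3' UTR, for 21 microRNA families and each of 4 siRNA libraries; the number of genes with a match stands in brackets. Every DICER1 value lies within 0.04 of 0, on both sides of it.

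Known targets were also described by list. Of 63 tested targets of the miR-17 to miR-92 cluster 37 were higher and 15 lower in both DICER1 libraries, with a median log2 fold change of 0.10. At an unadjusted quasi-likelihood p under 0.05, 9 members were higher and 2 lower, against 2.48% and 2.98% of all tested genes. The lists were chosen with earlier results of these data known, so the counts are a description. The kinase MINK1 measured 78.5 CPM in the mock, 109.8 and 113.8 CPM with DICER1 siRNA and 104.8 and 121.6 CPM with DROSHA siRNA. RBL2, a retinoblastoma relative, measured 120.2 CPM in the mock, 149.3 and 149.0 CPM with DICER1 siRNA and 145.8 and 144.8 CPM with DROSHA siRNA, and FYCO1, an autophagosome transport adaptor, at 0.35 ± 0.11. For MINK1 and RBL2 all 4 siRNA libraries lay above the mock. The median log2 ratios of the list were 0.08 and 0.07 with DICER1 siRNA and 0.07 and 0.11 with DROSHA siRNA. E2F1 stood at 0.31 ± 0.13, and CROT, which holds AATCTAA and CTATGTT, at -0.79 ± 0.17.

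Of 50 let-7 targets 21 were higher and 13 lower in both DICER1 libraries, with a median of 0.03. The nuclear receptor NR6A1 stood at 0.51 ± 0.24, while the oncogene NRAS stood at -0.32 ± 0.14 and HMGA2, a textbook let-7 target, at -0.23 ± 0.11. HMGA2 had 177.0 CPM in the mock and 161.9 and 140.8 CPM with DICER1 siRNA, lower in both.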

How the data were processed

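Poly(A) RNA of 5 libraries was counted. The authors deposited raw read counts per gene symbol, whole numbers with no normalization. The submitters' processing notes list hg19 and the tools CASAVA 1.8.2, HTSeq, STAR and edgeR, without their role. Since the strand setting of the counting is not stated, antisense and overlapping genes cannot be told apart. Columns were matched to samples by name.

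Genes below 1 CPM in 4 or more of the 5 libraries were left out. The quasi-likelihood F test (edgeR 4.0.16, TMM scaling, R 4.3.3) had no term but the group. With only 1 mock library the spread is that of the siRNA pairs, on 2 residual degrees of freedom (common biological coefficient of variation 8.51%). Adjusted p-values are Benjamini-Hochberg over all 12234 genes, and 0.05 was the limit. DESeq2 1.42.0 and edgeR's likelihood ratio test were alternatives. The SE was taken as the absolute log2 fold change over the root of F. Log2 ratios of single libraries used a prior count of 2. The test was checked on simulated counts for DICER1 against mock (12234 genes). It found 24 of 67 genes altered 1.5-fold, 61 of 67 altered 2-fold and 66 of 66 altered 4-fold. Of its 160 calls 9 were wrong. Genes of like level were simulated with the same spread. The rates therefore do not carry over to the measured data, where CPLX2, 6.71-fold higher, was not called.

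3' UTRs of at least 50 bases came from GENCODE 29 (12159 genes matched), microRNAs and 10112 promoters from RefSeq on GRCh38.p14. The files use hg19, so genes have no coordinates here.

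Members, gene lists, tests and 7-mers were chosen with earlier results of these data known. Named genes were the microRNA biogenesis list, the 15 higher and 15 lower genes with the smallest p, the 10 highest and lowest by their smaller log2 ratio, the 4 smallest p of each list, and genes called by any tool. The genes at least 1.5-fold from the mock, and REST, VGF, SYN1, HSPA5, HSPA8, CHORDC1 and TNPO1, were named outside that rule after their values were seen.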

Additional observations from a re-analysis of the deposited data

Results flagged for a closer look

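DICER1 and DROSHA differed between the knockdowns by a test of the difference itself: the log2 fold change of DICER1 minus DROSHA libraries was -2.12 ± 0.10 (SE) for DICER1 and 2.22 ± 0.08 for DROSHA (edgeR quasi-likelihood adjusted p = 0.00175 and 0.000369). These are the targeted genes.

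For 5 gene lists the median lay on one side of the mock in both DICER1 libraries and on the other in both DROSHA libraries, a difference that was not tested. The list medians in DICER1 against mock were 0.23 for granule and synaptic vesicle genes, 0.10 for neuronal cytoskeleton and adhesion genes, 0.015 for microRNA biogenesis genes, -0.054 for the vacuolar proton pump and -0.034 for mitotic genes. The biogenesis list holds DICER1 and DROSHA themselves.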

How the results depend on the processing

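The mock is 1 library, which no alternative can replace. For DICER1 against mock the 1 call became 3 with no filter, 7 with only the mock and DICER1 libraries, 5 with DESeq2 and 29 with the likelihood ratio test, and ranged from 0 to 7 with 1 siRNA library left out. With 1 DICER1 library left, that library is assumed to vary like the DROSHA pair. The DICER1 log2 fold change ranged from -1.85 to -1.71 and lost its call without either DICER1 library. For DICER1 against DROSHA the 2 calls became 24 with DESeq2 and 130 with the likelihood ratio test. They ranged from 1 to 462 with a library left out, 462 without DROSHA siRNA 1 and 33 without DROSHA siRNA 2. With the siRNA number as a replicate block among the 4 siRNA libraries there were 3 calls. The numbers are not a pairing: deviations of libraries with the same number correlated at 0.02.

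Genes 1.5-fold higher in both libraries numbered 10 at a mean of 20 CPM, and from 76 to 131 with 1 DICER1 library left out. Genes lower ranged from 79 to 176, and were 7 without carriers of the 3 lower 7-mers, an alternative chosen after seeing the data. The number of microRNA families above 0 ranged from 4 to 11 with a DICER1 library left out. It was 16 with length, GC content and expression regressed out, also chosen after seeing the data. That alternative also compared means in place of medians, over the genes at 5 CPM or more. With a library left out, SYN1 ranged from -0.43 to 0.23, the REST list median from -0.032 to 0.015 and the double-stranded RNA list median from -0.014 to 0.022, each above 0 without DICER1 siRNA 2. Without 7-mer carriers the REST and double-stranded RNA medians turned to 0.036 and 0.0067, and with library totals only the latter to 0.0084. No other named gene or described list changed sign in the alternatives run.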

Other observations

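Genes at the edge of detection gave values in no comparison above. KLHDC7B had 0 counts in the mock, 9 and 4 in the DICER1 libraries and 2 and 1 in the DROSHA libraries. MATN3, a cartilage matrix protein, had 6 counts in the mock, 0 and 0 in the DICER1 libraries and 8 and 6 in the DROSHA libraries. A count of 0 allows up to 3 counts, a limit that covers counting error only.

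The spread between libraries was above counting noise for every pair. Over 12105 genes chi-square divided by its degrees of freedom was 2.58 for the DICER1 pair, the smallest of the 10 pairs, 3.23 for the mock and DICER1 siRNA 1, 5.56 for the mock and DICER1 siRNA 2, and 7.43 for the DROSHA pair. NEK8, another NEK kinase, stood at 0.66 ± 0.23 in DICER1 against mock, on the other side of the mock from NEK7.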
